A study of Mus musculus with 15 samples.

Results

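The comparison concerned the lungs of mice that carried a growing osteosarcoma (PT-bearing mice) and the lungs of mice that received only the factors such cells release (SCR-treated mice), with the raw counts of all expressed genes. It held 11 of the 15 lungs of the study, 5 from PT-bearing mice (lungs 1, 2, 3, 5 and 6) and 6 from SCR-treated mice (lungs 1 to 6), assigned by their sample labels. The question was how lung transcripts differ when the whole tumour is present rather than its secretome alone. In the PT group, 500000 Luc+ cells of 143B, a human osteosarcoma cell line, were placed under the skin of the flank, and the lungs were collected after 8 to 10 days, when the tumour measured 50 to 60 mm3. In the SCR group, the conditioned medium of 143B cells was concentrated on centrifugal filters. It was then injected into the peritoneum at 25 µL per day for 1 week. For its control mice, the paper gives vehicle in the methods and untreated in a figure legend. The 4 control lungs (CTR, numbers 1, 2, 4 and 5) serve as a level beside the others. They were also part of the shared fit, so the p-values of PT against SCR depend on their spread too. Mice of all 3 groups were Athymic Swiss nude (Foxn1nu/nu), which lack a thymus and mature T cells, were 8 to 12 weeks old, and were male or female. The PT and SCR groups differed in the source of the factors, the route, the daily injections and the time of collection together, and the share of each of these in a difference cannot be told apart. Each lung gave 1 library, and p-values measure only the spread between these lungs.

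Total counts were 12767431 to 17386086 in PT lungs, 13078095 to 18621680 in SCR lungs and 14167644 to 22109856 in CTR lungs. By the larger of their Xist and Y-linked counts, PT lungs 3 and 5 and SCR lungs 4 and 6 were taken as female and the other lungs as male, so that both sexes were in both groups. Of these, 3 lungs also held transcripts of the other sex. PT lung 6 had 94 and SCR lung 5 had 381 Xist counts, against 1 to 7 in the other male lungs, and SCR lung 6 had 61 Y-linked counts, against 0 in the other female lungs. Whether any libraries were mixed was not tested, and the genes that passed are also given without these 3 lungs. Transcripts typical of lung were abundant, and Sftpc, the surfactant protein of alveolar type 2 cells, averaged 18200 ± 3138 CPM (SD, n = 5) in PT lungs and 17900 ± 8256 CPM (SD, n = 6) in SCR lungs, where CPM are counts scaled to library size. SCR lungs 1 to 3 stood apart. On the first principal component of the most variable genes, which held 35.2% of the variance, they lay at 39.1 to 49.0, and all other lungs at -25.4 to 12.8. They also had the lowest B cell markers, with a mean log2 CPM of 1.89 to 2.72 against 4.73 to 4.99 in PT lungs and 4.88 to 5.63 in SCR lungs 4 to 6. Markers of the mesothelium, the lining of the lung surface, were also lowest there, at 1.21 to 3.40, against 3.73 to 5.00 in PT lungs and 4.55 to 4.98 in SCR lungs 4 to 6, while CTR lungs reached from 3.70 to 4.78. Most results below are therefore given with all 6 SCR lungs and again without SCR lungs 1 to 3.

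As background, tumours act on distant organs through cytokines, vesicles and matrix proteins in the blood. Lung macrophages, epithelium and endothelium answer such signals with acute phase proteins and chemokines, which draw neutrophils and monocytes out of the circulation. Matrix proteases and their inhibitors then set how the connective tissue is remodelled, and the inhibitor TIMP1 is also a secreted signal of inflamed tissue. In bulk tissue, fewer cells of a type and less RNA per cell cannot be told apart.

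Against SCR-treated mice, 6 genes rose in the lungs of PT-bearing mice and none fell. The genes were Stk32c, Saa3, Cxcl1, Timp1, Cxcl2 and Pgm5. They were 6 of 15870 genes tested, or 0.0378%, at a Benjamini-Hochberg adjusted p under 0.05 in edgeR's quasi-likelihood test. The count of lower genes was 0 (0.00%), although 889 genes (5.60%) were lower and 982 (6.19%) higher at an unadjusted p under 0.05. By other tests on the same counts, the likelihood ratio test of edgeR called 134 higher and 49 lower genes, and DESeq2 called 151 higher (0.858%) and 87 lower genes (0.494%). Those 2 tests called the same 6 genes among theirs. In a fit of PT and SCR lungs only, without the controls, 6 genes passed, and 3 of them were among these 6. Over all genes the median log2 fold change was -0.0094. Every PT lung lay above every SCR lung for 142 genes (0.895%) and below every SCR lung for 123 genes (0.775%). All 6 genes were among the 142. Without SCR lungs 1 to 3, 1 of 15934 genes passed (0.00628%), and it was none of these 6. All 6 kept their sign and an unadjusted p under 0.05 there. With sex as a term, 19 genes passed (0.120%), all higher and the 6 included, and 2 genes (0.0126%) had a difference between groups that itself differed by sex. Among male lungs alone, 4 genes were higher and 2 lower. Without PT lung 6 and SCR lungs 5 and 6, which held transcripts of the other sex, 102 of 15757 genes passed (0.647%), 74 higher and 28 lower. The 6 genes were among them, with log2 fold changes of 2.18 for Stk32c, 3.62 for Saa3, 2.01 for Cxcl1, 1.81 for Timp1, 2.48 for Cxcl2 and 0.81 for Pgm5. SCR lungs 1 to 3 were then 3 of the 4 SCR lungs in the fit.

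**Figure D1:**
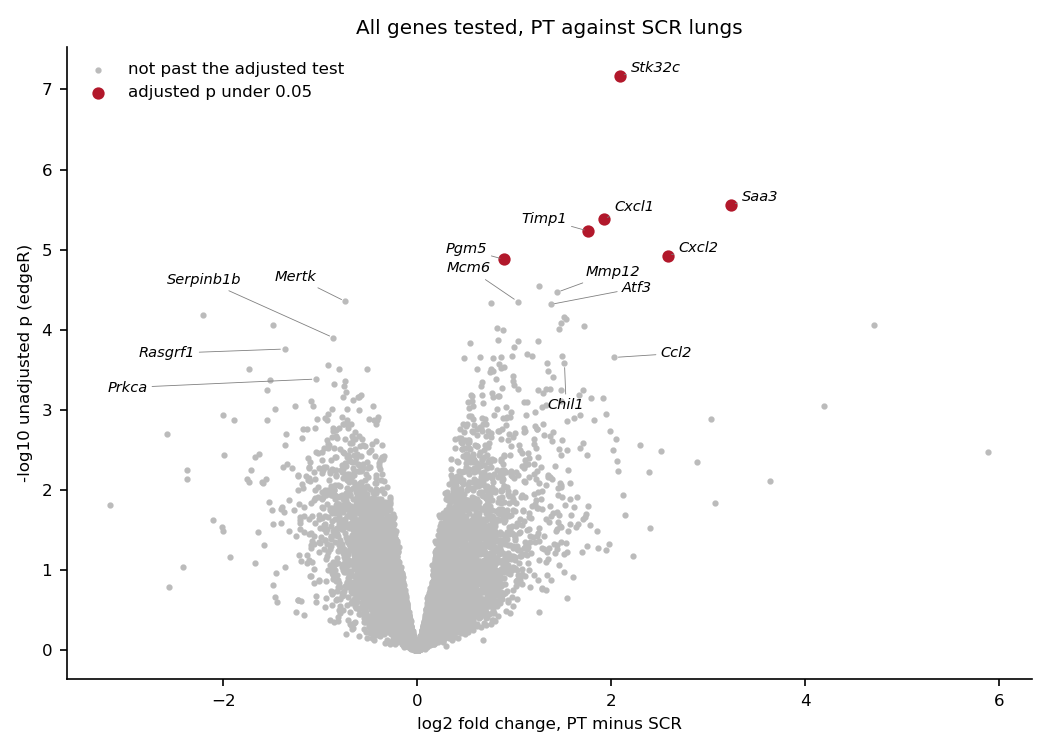
Each point is 1 of the 15870 genes tested, with its log2 fold change (PT minus SCR) on the x axis and the -log10 of its unadjusted edgeR p on the y axis. The 6 genes past an adjusted p of 0.05 are in red and all lie on the right, with Stk32c highest and Saa3 farthest to the right among them, and the labelled grey genes, Mertk and Mmp12 among them, did not pass.

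Saa3 is in the list of acute phase genes, and Cxcl1 and Cxcl2 are in that of neutrophil-attracting chemokines. Saa3 (chromosome 7 of GRCm38, 46711998 to 46715676, minus strand) encodes serum amyloid A3, an acute phase protein that inflamed tissues make outside the liver. Its level in PT lungs 1, 2, 3, 5 and 6 was 61.5, 17.3, 32, 63.3 and 50.5 CPM, against a lowest value of 2.64, a median of 3.69 and a highest of 11.4 CPM in the SCR lungs. The lowest PT lung, number 2, was above the highest SCR lung, number 6, and CTR lungs lay at 2.61 to 9.83 CPM. This was a log2 fold change of 3.24 ± 0.46 (SE, adjusted p = 0.0219 by edgeR), and 2.85 without SCR lungs 1 to 3 (adjusted p by edgeR = 0.344).

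Cxcl1 (chromosome 5, 90891241 to 90893115, plus strand) and Cxcl2 (chromosome 5, 90903871 to 90905938, plus strand) encode chemokines that attract neutrophils through the receptor CXCR2, and they lie next to each other in a chemokine cluster. Cxcl1 had 9.91, 3.30, 5.71, 9.77 and 7.62 CPM in PT lungs 1, 2, 3, 5 and 6, against 1.33 (lowest), 2.0 (median) and 2.29 CPM (highest) in the SCR lungs. PT lung 2 was again the lowest of its group and still above each SCR lung, and CTR lungs lay at 1.79 to 3.93 CPM. The log2 fold change of Cxcl1 was 1.92 ± 0.29 (SE, adjusted p = 0.0219 by edgeR), and 1.93 without SCR lungs 1 to 3 (adjusted p by edgeR = 0.303). Cxcl2 was scarce, with 24, 32, 42, 33 and 81 counts in the PT lungs. In CPM these were 1.84, 2.11, 2.35, 2.42 and 6.30, against 0.223 (lowest), 0.472 (median) and 0.943 CPM (highest) in the SCR lungs. The groups did not overlap, PT lung 6 stood far above the other PT lungs, and CTR lungs lay at 0.373 to 1.24 CPM. The log2 fold change of Cxcl2 was 2.58 ± 0.42 (SE, adjusted p = 0.035 by edgeR), and 2.23 without SCR lungs 1 to 3 (adjusted p by edgeR = 0.367).

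Because both of these neighbouring chemokine genes were higher in PT lungs, their promoters are shown. Among single PT lungs their levels did not run in parallel, since in CPM lung 1 had the highest Cxcl1 and the lowest Cxcl2. The promoters reach from 250 bases before to 50 bases after the start that RefSeq gives (GRCm38.p6), 5′ to 3′ on the strand of the gene. Cxcl1 spans chr5:90890995-90891294 (plus strand) and Cxcl2 chr5:90903649-90903948 (plus strand). Capitals mark matches to the NF-kB consensus, the binding motif of a transcription factor that many inflammatory signals activate.
Cxcl1: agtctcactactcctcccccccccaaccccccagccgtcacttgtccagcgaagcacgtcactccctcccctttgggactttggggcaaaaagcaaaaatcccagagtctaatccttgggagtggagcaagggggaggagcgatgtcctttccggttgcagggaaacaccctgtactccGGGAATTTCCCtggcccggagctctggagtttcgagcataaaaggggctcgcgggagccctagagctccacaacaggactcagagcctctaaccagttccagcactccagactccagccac
Cxcl2: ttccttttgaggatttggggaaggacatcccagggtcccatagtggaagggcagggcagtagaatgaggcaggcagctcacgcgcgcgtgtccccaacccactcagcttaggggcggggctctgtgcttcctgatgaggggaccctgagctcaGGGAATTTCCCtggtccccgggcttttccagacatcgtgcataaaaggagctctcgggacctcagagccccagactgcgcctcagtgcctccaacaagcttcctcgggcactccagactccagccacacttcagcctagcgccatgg
Both promoters held the same stretch of 11 bases, GGGAATTTCCC, which matched the NF-kB consensus on both strands in overlapping positions. It began 71 bases before the start of Cxcl1 and 97 bases before that of Cxcl2. On the strand of the gene, the same stretch was in 12 of 32851 promoters of this length (0.0365%). These neighbouring promoters also shared letters outside the stretch, such as gcactccagactccagccac, so their matches are not independent of each other. The consensus on either strand was in 4.51% of all promoters, in 6.48% of 11406 tested genes with a promoter, and in 13 of 146 such genes (8.90%) with a log2 fold change over 1 and an unadjusted p under 0.05, a rule that 204 genes (1.29%) met in all. The promoter of Chil1, described below, held 1 match, and those of Saa3, Timp1, Pgm5 and Stk32c none. The NF-kB consensus was chosen after the genes that passed were known. The motifs TGACTCA (AP-1) and CACGTG (E-box), searched on both strands, were in none of these promoters, against 5.20% and 7.15% of all promoters. Of the same 146 genes, 13 (8.90%) held the AP-1 motif, as many as held the NF-kB consensus, against 4.93% of the tested genes, and 6 (4.11%) held the E-box, against 11.1%. The letters CCAAT were once in the promoter of Timp1 and at 2 places in that of Chil1, against 37.4% of all promoters. A match in this window is a description of the letters and not a measured binding site.

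Timp1 (chromosome X, 20870166 to 20874735, plus strand) encodes a secreted inhibitor of matrix metalloproteases. It had 18.8, 6.99, 11.6, 22.2 and 18.4 CPM in PT lungs 1, 2, 3, 5 and 6, against 3.07 (lowest), 4.36 (median) and 6.76 CPM (highest) in the SCR lungs. The margin was narrow, since PT lung 2 was barely above SCR lung 1, and CTR lungs lay at 4.79 to 6.42 CPM. The log2 fold change was 1.77 ± 0.27 (SE, adjusted p = 0.0233 by edgeR), and 1.68 without SCR lungs 1 to 3 (adjusted p by edgeR = 0.226). Saa3, Cxcl1 and Timp1 all had their lowest PT value in lung 2.

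Stk32c had the smallest p. Stk32c (chromosome 7, 139103638 to 139213307, minus strand) encodes a serine/threonine kinase with few known functions. It had 6.91, 5.80, 9.13, 9.63 and 7.86 CPM in PT lungs 1, 2, 3, 5 and 6, against 1.46 (lowest), 1.72 (median) and 2.61 CPM (highest) in the SCR lungs. All PT lungs were well above the SCR lungs and the CTR lungs, which lay at 1.40 to 2.90 CPM. Its log2 fold change was 2.09 ± 0.23 (SE, adjusted p = 0.00107 by edgeR), and 1.94 without SCR lungs 1 to 3 (adjusted p by edgeR = 0.0612). Of its 2302 exon bases, 92 (4.0%) overlapped exons of Lrrc27 on the other strand. Lrrc27, named only for this overlap, had a log2 fold change of -0.09.

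Pgm5 (chromosome 19, 24683016 to 24861855, minus strand) encodes a relative of phosphoglucomutase found at adherens junctions of muscle cells. It had 64.9, 71.2, 63.3, 78.6 and 106 CPM in PT lungs 1, 2, 3, 5 and 6, against 32.5 (lowest), 41.7 (median) and 52.8 CPM (highest) in the SCR lungs. PT lung 6 was the highest, the groups did not overlap, and CTR lungs lay between them at 56.9 to 61.9 CPM. This was a log2 fold change of 0.90 ± 0.15 (SE, adjusted p = 0.035 by edgeR), and 0.68 without SCR lungs 1 to 3 (adjusted p by edgeR = 0.367). Among cardiac muscle genes, 2 of 18 were higher at an unadjusted p under 0.05, against 6.19% of all genes tested. Cardiac muscle genes were also highest in PT lung 6, where their mean log2 CPM was 5.69 against 4.07 at the lowest PT lung. Their part in Pgm5 was not tested.

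On log2(CPM + 1), an exact two-sided permutation test of the 5 PT against the 6 SCR lungs gave p = 0.00433 for each of the 6 genes, the smallest value that 462 splits allow, and p = 0.0357 without SCR lungs 1 to 3, the smallest of 56 splits. The genes were selected by the same comparison, so this test restates that their ranges did not overlap. Against controls, none of the 15870 genes passed in PT lungs (0.00%, 1216 genes or 7.66% at an unadjusted p under 0.05, edgeR) and 18 passed in SCR lungs (0.113%). Both of these comparisons share lungs with the one described here. For Saa3 the log2 fold change was 3.23 for PT over CTR and -0.014 for SCR over CTR. For Stk32c it was 1.70 for PT over CTR and -0.40 for SCR over CTR, for Cxcl1 1.51 and -0.41, and for Timp1 1.53 and -0.24. For Cxcl2 it was 1.54 for PT over CTR and -1.05 for SCR over CTR, and for Pgm5 0.36 and -0.54. Stk32c also passed when any 1 of the 15 lungs was left out. The other 5 genes lost their call in several such fits, with adjusted p-values between 0.05 and 0.119. Saa3 and Cxcl1 lost it without PT lung 1, 5 or 6 or SCR lung 1, 2, 3 or 4, and Timp1 without PT lung 1, 5 or 6 or SCR lung 2, 3 or 4. Cxcl2 lost it without PT lung 1, 5 or 6, SCR lung 1, 2, 3, 4 or 5, or CTR lung 1 or 4. Pgm5 lost it without PT lung 1, 2, 5 or 6, SCR lung 1, 2, 3 or 5, or CTR lung 1, 2 or 4. Without SCR lung 6, which had the highest SCR level of Saa3 and Cxcl2, 96 genes passed, 84 of them higher, the 6 included.

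**Figure D2:**
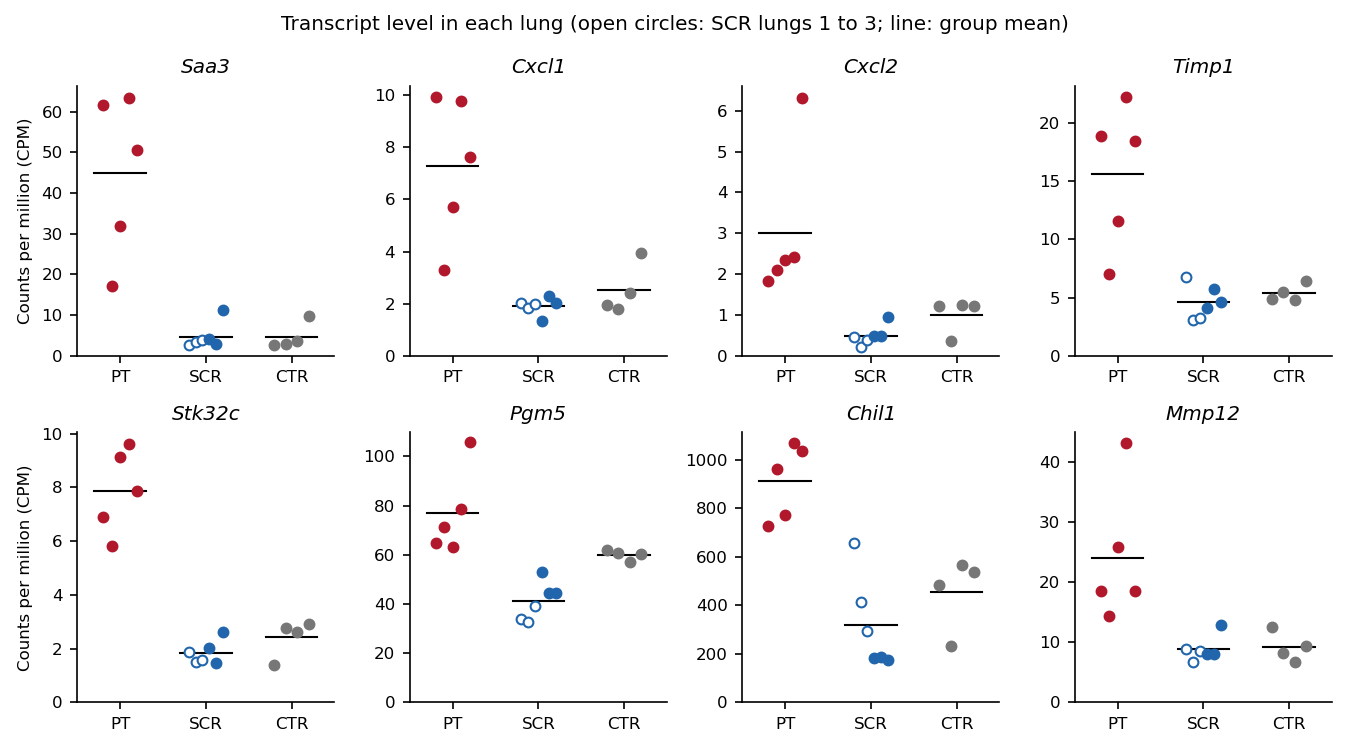
Each point is 1 lung, with the level in CPM on the y axis and the groups PT, SCR and CTR on the x axis, and the line is the group mean. Open circles are SCR lungs 1 to 3, and for all 8 genes shown each PT lung lies above each SCR lung, by a wide margin for Stk32c and by a narrow one for Timp1, Chil1 and Mmp12.

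Chil1 was the gene that passed when SCR lungs 1 to 3 were left out. Chil1 (chromosome 1, 134182176 to 134190181, plus strand) encodes a secreted chitinase-like protein that macrophages, neutrophils and epithelium release in inflamed lungs. It had 728, 962, 773, 1068 and 1036 CPM in PT lungs 1, 2, 3, 5 and 6, against 175 (lowest), 242 (median) and 655 CPM (highest) in the SCR lungs. SCR lungs 1 to 3 were the highest of their group at 655, 415 and 295 CPM, and lungs 4 to 6 lay at 182, 188 and 175 CPM. With all lungs the log2 fold change was 1.52 ± 0.33 (SE, adjusted p = 0.101 by edgeR), and without SCR lungs 1 to 3 it was 2.31 (adjusted p by edgeR = 0.0118). Leaving out SCR lung 1 alone gave 1.86 (adjusted p by edgeR = 0.034). CTR lungs lay at 484, 232, 565 and 539 CPM.

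Neutrophil markers had the highest median of the immune cell lists. Of 25 genes, all had a log2 fold change above 0, 18 were higher and 0 lower at an unadjusted p under 0.05 (background 6.19% and 5.60%), none passed the adjusted test, and the median was 1.14 against -0.0094 over all genes. Without SCR lungs 1 to 3, 10 were higher at that p (background 5.28%) and the median was 0.72. The background is the same for every list, 6.19% higher and 5.60% lower, and 5.28% and 4.09% without those lungs. In mean log2 CPM of the list, PT lungs 1, 2, 3, 5 and 6 lay at 4.99, 4.66, 4.65, 4.67 and 4.97, the first 3 SCR lungs between 2.60 and 3.53 and the other SCR lungs between 3.33 and 4.62. All PT lungs were close together and above all SCR lungs, of which lung 6 came nearest, and CTR lungs reached from 3.42 to 4.61. The summed level of the list was 1531 to 2447 CPM in PT lungs and 463 to 2018 CPM in SCR lungs.

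Il1r2, Asprv1, Trem1 and Clec4d had the smallest p among the neutrophil genes. Il1r2, the decoy receptor for interleukin 1, had 5.07, 5.60, 5.27, 7.05 and 8.79 CPM in PT lungs and 1.39 (lowest), 2.86 (median) and 3.15 CPM (highest) in SCR lungs. These ranges did not overlap, and the log2 fold change was 1.34 (adjusted p by edgeR = 0.101), and 1.60 without SCR lungs 1 to 3. Trem1, which amplifies inflammatory signals in neutrophils and monocytes, averaged 13 ± 1.14 CPM (SD, n = 5) in PT lungs and 5.30 ± 2.71 (SD, n = 6) in SCR lungs. Its log2 fold change was 1.30 (adjusted p by edgeR = 0.129), and 0.92 without those lungs. Clec4d, a lectin receptor of myeloid cells, had log2 fold changes of 1.13 and 0.94, and Asprv1, a protease transcript, 1.35 and 0.98. Csf3r, the receptor for granulocyte colony-stimulating factor, and the granule genes S100a8 and S100a9 were picked after their values were seen. Their log2 fold changes were 1.35, 1.14 and 1.11 with all lungs, and 0.68, 0.58 and 0.55 without SCR lungs 1 to 3. S100a8 and S100a9 overlapped between the groups, since SCR lung 6 had 449 CPM of S100a8, above PT lungs 2, 3, 5 and 6. Of the 4 genes of granulocyte precursors that were tested, 1 was higher at an unadjusted p under 0.05, with a median of 0.47, and none was higher without SCR lungs 1 to 3.

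Acute phase and inflammatory genes followed, a list that shares members with the neutrophil markers, Trem1 and Lcn2 among them. Of 20 tested, 13 were higher and 0 lower at an unadjusted p under 0.05, Saa3 alone passed, and the median was 0.70, while 9 were higher and the median was 0.47 without SCR lungs 1 to 3. For 6 of the 20, every PT lung lay above every SCR lung, against 0.895% of all genes tested. Mean log2 CPM of the list was 4.74, 4.45, 4.45, 4.77 and 4.75 in PT lungs, against 3.31 to 3.81 for SCR lungs 1 to 3, 3.75 to 4.18 for SCR lungs 4 to 6 and 3.91 to 4.48 for the CTR lungs. Every PT lung lay above every SCR lung here. Tlr2, the receptor for bacterial lipoproteins, averaged 53.4 ± 4.95 CPM (SD, n = 5) in PT lungs and 36.6 ± 4.13 (SD, n = 6) in SCR lungs. Its log2 fold change was 0.54 ± 0.11 (SE, adjusted p = 0.0867 by edgeR), and 0.43 without SCR lungs 1 to 3. Il1rn, the natural antagonist of interleukin 1, had log2 fold changes of 0.82 and 0.57. Il1b, which encodes interleukin 1 beta and was picked after its values were seen, had 240, 164, 146, 138 and 220 CPM in PT lungs and 17.1 (lowest), 51.1 (median) and 118 CPM (highest) in SCR lungs. Its ranges did not overlap, its log2 fold change was 1.68 (adjusted p by edgeR = 0.152), and 1.06 without SCR lungs 1 to 3. Lcn2, an iron-binding protein of neutrophils and epithelium, had 0.71 with all lungs and 1.02 without those 3. Of 20 NF-kB feedback targets, 8 were higher at that p with a median of 0.41, led by Tnfaip2 (0.88) and Bcl3 (0.79), and 5 were higher with a median of 0.14 without SCR lungs 1 to 3. Vcam1 and Sele, adhesion molecules of activated endothelium, had log2 fold changes of 0.59 and 1.37, and 0.32 and 0.97 without these lungs.

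Chemokines were ordered by the cells they attract. Of 11 neutrophil-attracting chemokines and receptors, 4 were higher and 0 lower at an unadjusted p under 0.05 with all lungs, and 4 without SCR lungs 1 to 3, with medians of 0.38 and 0.55. All 11 had a log2 fold change above 0. Besides Cxcl1 and Cxcl2, Cxcl3, another ligand of CXCR2, had 1.35 (adjusted p by edgeR = 0.234) and 0.93 without those lungs. The receptor gene Cxcr2, carried mainly by neutrophils, averaged 85.4 ± 13.5 CPM (SD, n = 5) in PT lungs and 30.9 ± 22.2 (SD, n = 6) in SCR lungs. Its log2 fold change was 1.47 (adjusted p by edgeR = 0.190), and 0.85 without SCR lungs 1 to 3, and SCR lung 6, at 71.1 CPM, overlapped PT lung 3, at 65.7 CPM.

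Of 16 monocyte chemokines and receptors, 6 were higher and 0 lower at that p, with a median of 0.69, and 4 with a median of 0.50 without SCR lungs 1 to 3. None passed the adjusted test. Ccl2 and Ccl7 encode ligands of CCR2, which brings monocytes out of the blood. Ccl2 had 5.30, 2.24, 4.32, 12.1 and 4.04 CPM in PT lungs and 0.621 (lowest), 1.02 (median) and 3.19 CPM (highest) in SCR lungs. PT lung 5 stood above the rest, PT lung 2 lay within the SCR range, and the log2 fold change was 2.03 ± 0.43 (SE, adjusted p = 0.0938 by edgeR), and 1.74 without SCR lungs 1 to 3. Ccl7 had 2.54, 1.25, 2.24, 5.00 and 2.72 CPM in PT lungs and 0.477 (lowest), 0.823 (median) and 1.23 CPM (highest) in SCR lungs. PT lung 2 lay just above SCR lung 6, and the log2 fold change was 1.72 ± 0.34 (SE, adjusted p = 0.0716 by edgeR), and 1.81 without those lungs. Ccr1, a receptor gene of monocytes and neutrophils, had a log2 fold change of 1.13 (adjusted p by edgeR = 0.0938), and 0.76 without them. With sex as a term in the model, it passed the adjusted test (adjusted p by edgeR = 0.0348).

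Of 15 lymphoid and dendritic chemokines and receptors, 6 were higher and 0 lower at an unadjusted p under 0.05, with a median of 0.55, and 4 with a median of 0.19 without SCR lungs 1 to 3. Cxcl9 and Cxcl11 encode ligands of CXCR3 that interferon gamma induces. Cxcl9 had 27.6, 8.96, 24.4, 61.4 and 16.3 CPM in PT lungs and 0.466 (lowest), 1.27 (median) and 16.8 CPM (highest) in SCR lungs. SCR lung 6 overlapped PT lungs 2 and 6, and the log2 fold change was 2.89 ± 0.86 (SE, adjusted p = 0.210 by edgeR), and 2.08 without SCR lungs 1 to 3. Cxcl11 had log2 fold changes of 3.03 and 2.48. Ccl17 and Ccl22, ligands of CCR4 made by dendritic cells and macrophages, had 1.38 and 1.33 with all lungs (adjusted p by edgeR = 0.125 for both), and 1.47 and 0.95 without those lungs. Interferon-stimulated genes as a list had a median of 0.26, with 1 of 27 higher at that p (background 6.19%). Without SCR lungs 1 to 3 the median was 0.13, with 0 higher in edgeR (background 5.28%). Isg15, a ubiquitin-like protein among them, had log2 fold changes of 0.64 and 0.43.

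**Figure D3:**
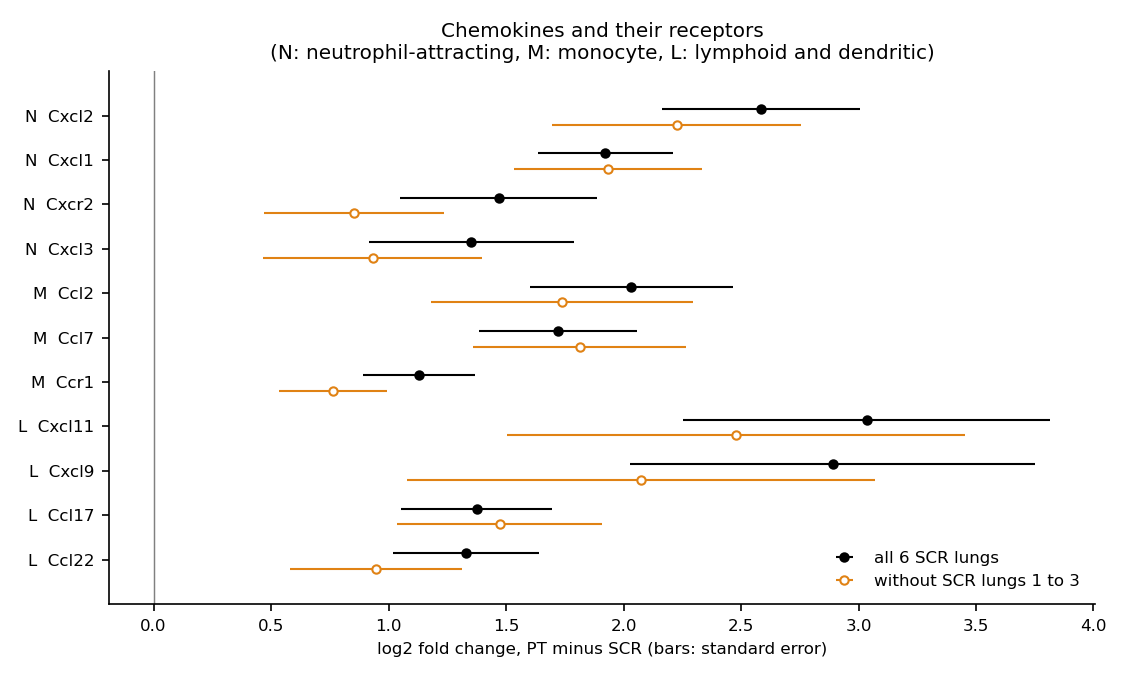
The x axis is the log2 fold change (PT minus SCR) with its standard error for each chemokine or receptor gene named in the text, black with all 6 SCR lungs and open orange without SCR lungs 1 to 3, and genes are grouped as neutrophil-attracting (N), monocyte (M) and lymphoid and dendritic (L). Cxcl2, Cxcl1, Ccl2, Ccl7, Cxcl11 and Cxcl9 lie farthest to the right, and the points of the receptor genes Cxcr2 (1.47 and 0.85) and Ccr1 (1.13 and 0.76) move towards 0 without the 3 lungs.

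Macrophage transcripts differed less in size. Of 20 macrophage and C1q genes, 13 were higher and 1 lower at an unadjusted p under 0.05, with a median of 0.54, and 9 were higher and 0 lower with a median of 0.38 without SCR lungs 1 to 3. Fcgr3, an activating receptor for IgG, averaged 71.8 ± 13.3 CPM (SD, n = 5) in PT lungs and 40.6 ± 8.24 (SD, n = 6) in SCR lungs. All PT lungs were above all SCR lungs, with a log2 fold change of 0.82 ± 0.16 (SE, adjusted p = 0.0716 by edgeR), and 0.73 without SCR lungs 1 to 3. Adgre1, which encodes the macrophage surface protein F4/80, had 0.62 and 0.49, and C1qc, a chain of complement C1q made by macrophages, 0.73 and 0.81. C1qa, another C1q chain, picked after its values were seen, had 0.71 and 0.98. Ctss, the lysosomal protease cathepsin S, had 0.55 and 0.57. Of 18 alveolar macrophage genes, 4 were higher at that p (background 6.19%), with a median of 0.08. Without SCR lungs 1 to 3, 5 were higher (background 5.28%), with a median of 0.40. Itgax, an integrin of alveolar macrophages and dendritic cells, had 0.76 and 0.47. Of 19 C-type lectin receptors, 9 were higher and 0 lower with a median of 0.63, and 6 with a median of 0.34. Cd209a, a lectin of dendritic cells, had 14.1, 12.8, 11, 12.2 and 13.5 CPM in PT lungs and 5.08 (lowest), 7.09 (median) and 9.43 CPM (highest) in SCR lungs. The ranges did not overlap, and the log2 fold change was 0.86 ± 0.18 (SE, adjusted p = 0.0938 by edgeR), and 0.62 without SCR lungs 1 to 3. Mgl2 and Clec7a, the receptor for fungal beta-glucan, had 0.88 and 0.86, and 0.65 and 0.60 without those lungs. Of 12 MHC class II genes, 3 were higher, with medians of 0.38 and 0.27, and H2-Aa, the alpha chain that presents peptides to helper T cells, had 0.66 and 0.57.

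Mertk stood on the other side. Mertk encodes a receptor tyrosine kinase through which macrophages take up dying cells. It had 29.7, 36.2, 33.7, 35.9 and 34.4 CPM in PT lungs and 48.7 (lowest), 51.5 (median) and 82.0 CPM (highest) in SCR lungs. No PT lung reached the lowest SCR lung, and CTR lungs, at 42.4 to 54.6 CPM, overlapped the SCR lungs. The log2 fold change was -0.74 ± 0.14 (SE, adjusted p = 0.0638 by edgeR), and -0.57 without SCR lungs 1 to 3 (adjusted p by edgeR = 0.18).

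Cell cycle genes had the largest share of higher members after the neutrophil markers. Of 27, 19 were higher and 0 lower at an unadjusted p under 0.05, none passed the adjusted test, and the median was 0.72, against 11 and 0.52 without SCR lungs 1 to 3. Mean log2 CPM of the list was 2.81, 2.84, 3.20, 3.79 and 2.93 in PT lungs, against 1.97 to 2.35 for SCR lungs 1 to 3, 2.47 to 2.80 for SCR lungs 4 to 6 and 2.75 to 2.79 for the CTR lungs. PT lung 5 was the highest, and the lowest PT lung lay just above the highest SCR lung. Mcm6, a subunit of the helicase that opens DNA for replication, had 30.3, 20.2, 27.4, 39.2 and 20.9 CPM in PT lungs and 9.38 (lowest), 13.2 (median) and 19.2 CPM (highest) in SCR lungs. Its log2 fold change was 1.04 ± 0.19 (SE, adjusted p = 0.0638 by edgeR), and 0.78 without SCR lungs 1 to 3. With sex as a term, Mcm6 passed (adjusted p by edgeR = 0.0229). Cdk1, the kinase that drives entry into mitosis, had 7.45, 6.0, 10.4, 14.7 and 7.08 CPM in PT lungs and 1.95 (lowest), 4.26 (median) and 4.74 CPM (highest) in SCR lungs. These ranges did not overlap, and the log2 fold change was 1.25 ± 0.25 (SE, adjusted p = 0.0849 by edgeR), and 1.06 without those lungs. Plk1, a mitotic kinase, had 1.11 and 0.94, and Mcm2, another subunit of the helicase, 0.67 and 0.50.

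Matrix proteases and their inhibitors, which include Timp1, parted the groups as a list. Some members of this list are also neutrophil markers. Of 34, 16 were higher and 1 lower at an unadjusted p under 0.05, with a median of 0.26, against 11 higher, 1 lower and 0.30 without SCR lungs 1 to 3. In mean log2 CPM, PT lungs 1, 2, 3, 5 and 6 lay at 5.51, 5.34, 5.38, 5.55 and 5.55, the first 3 SCR lungs between 4.84 and 5.01 and the other SCR lungs between 5.10 and 5.15. Every PT lung was above every SCR lung. CTR lungs 2 and 4, at 5.468 and 5.409, lay among the PT lungs. CTR lungs 1 and 5, at 5.305 and 5.295, lay between the PT and SCR lungs. Mmp12, the elastase of macrophages, had 18.5, 14.4, 25.8, 43.1 and 18.5 CPM in PT lungs and 6.81 (lowest), 8.36 (median) and 12.8 CPM (highest) in SCR lungs. PT lung 5 was the highest and the groups did not overlap. This was a log2 fold change of 1.44 ± 0.26 (SE, adjusted p = 0.0638 by edgeR), and 1.30 without SCR lungs 1 to 3, and with sex as a term Mmp12 passed (adjusted p by edgeR = 0.0229). Mmp2, a gelatinase of stromal cells, had log2 fold changes of 0.58 and 0.48. Of the other inhibitors of metalloproteases, picked after their values were seen, Timp2 had 0.08 and -0.0021, and Timp3, which binds to the matrix, -0.57 and -0.19.

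Interstitial matrix genes had a median above 0 against SCR lungs and below 0 against controls. Of 38, 16 were higher and 0 lower in PT against SCR lungs at an unadjusted p under 0.05, with a median of 0.44. Without SCR lungs 1 to 3, 4 were higher and the median was 0.21. Against controls the median was -0.33 in PT lungs and -0.80 in SCR lungs. Mean log2 CPM was 5.76, 5.77, 5.79, 5.83 and 6.11 in PT lungs, against 4.90 to 5.26 for SCR lungs 1 to 3, 5.51 to 5.69 for SCR lungs 4 to 6 and 5.84 to 6.28 for the CTR lungs. All PT lungs stood above all SCR lungs, with a small gap to SCR lungs 4 to 6, and PT lung 6 was the highest. Eln, the core protein of elastic fibres, averaged 227 ± 69.7 CPM (SD, n = 5) in PT lungs and 114 ± 33.3 (SD, n = 6) in SCR lungs. Its log2 fold change was 0.99 ± 0.22 (SE, adjusted p = 0.114 by edgeR), and 0.95 without SCR lungs 1 to 3, and PT lung 6, at 145 CPM, overlapped the SCR lungs. Tnc, the adhesion-modulating protein tenascin C, had 1.29 and 0.87, Thbs1, a secreted activator of TGF-beta, 1.33 and 0.91, and Loxl2, which crosslinks collagen, 0.69 and 0.35. Sparc, a collagen-binding protein, had 0.51 and 0.48.

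Of 28 basement membrane genes, 5 were higher and 0 lower at that p (background 6.19% and 5.60%), with a median of 0.25. Without SCR lungs 1 to 3, 4 were higher and 1 lower (background 5.28% and 4.09%), with a median of 0.04. Against controls the median was -0.57 in PT lungs and -0.81 in SCR lungs. Col18a1, whose fragment endostatin restrains vessel growth, had 67.2, 53.1, 51.8, 98.1 and 61.2 CPM in PT lungs and 24.1 (lowest), 37.1 (median) and 44.7 CPM (highest) in SCR lungs. The groups did not overlap, and the log2 fold change was 0.87 ± 0.19 (SE, adjusted p = 0.101 by edgeR), and 0.58 without SCR lungs 1 to 3. Col15a1, a related collagen, had 1.13 and 0.63, and Col4a2, a chain of type IV collagen, 0.62 and 0.45. Of 26 integrins, 8 were higher with a median of 0.42, and 2 with 0.06 without SCR lungs 1 to 3. The leukocyte subunit Itgb2 had 0.64 and 0.28, and the fibronectin receptor subunit Itga5 0.54 and 0.31.

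Immediate early genes, which cells switch on soon after a stimulus, were higher in 13 of 28 cases and lower in 0 at an unadjusted p under 0.05, with a median of 0.55. Without SCR lungs 1 to 3, 2 were higher and the median was 0.29. Against controls the median was -0.32 in PT lungs and -0.77 in SCR lungs. Mean log2 CPM was 5.97, 5.80, 6.10, 5.36 and 5.89 in PT lungs, against 4.87 to 4.94 for SCR lungs 1 to 3 and 5.31 to 5.75 for SCR lungs 4 to 6, and PT lung 5 overlapped the SCR lungs. Atf3, a stress-responsive transcription factor, had 26.9, 30.1, 36.8, 18.7 and 38.5 CPM in PT lungs and 9.01 (lowest), 10.0 (median) and 15.7 CPM (highest) in SCR lungs. The groups did not overlap, while CTR lungs reached from 17.2 to 49.4 CPM. The log2 fold change was 1.38 ± 0.25 (SE, adjusted p = 0.0638 by edgeR), and 1.12 without SCR lungs 1 to 3. Egr2, Junb and Fosl2, further transcription factors of this kind, had 0.70, 0.66 and 0.65, and 0.33, 0.32 and 0.34 without those lungs.

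**Figure D4:**
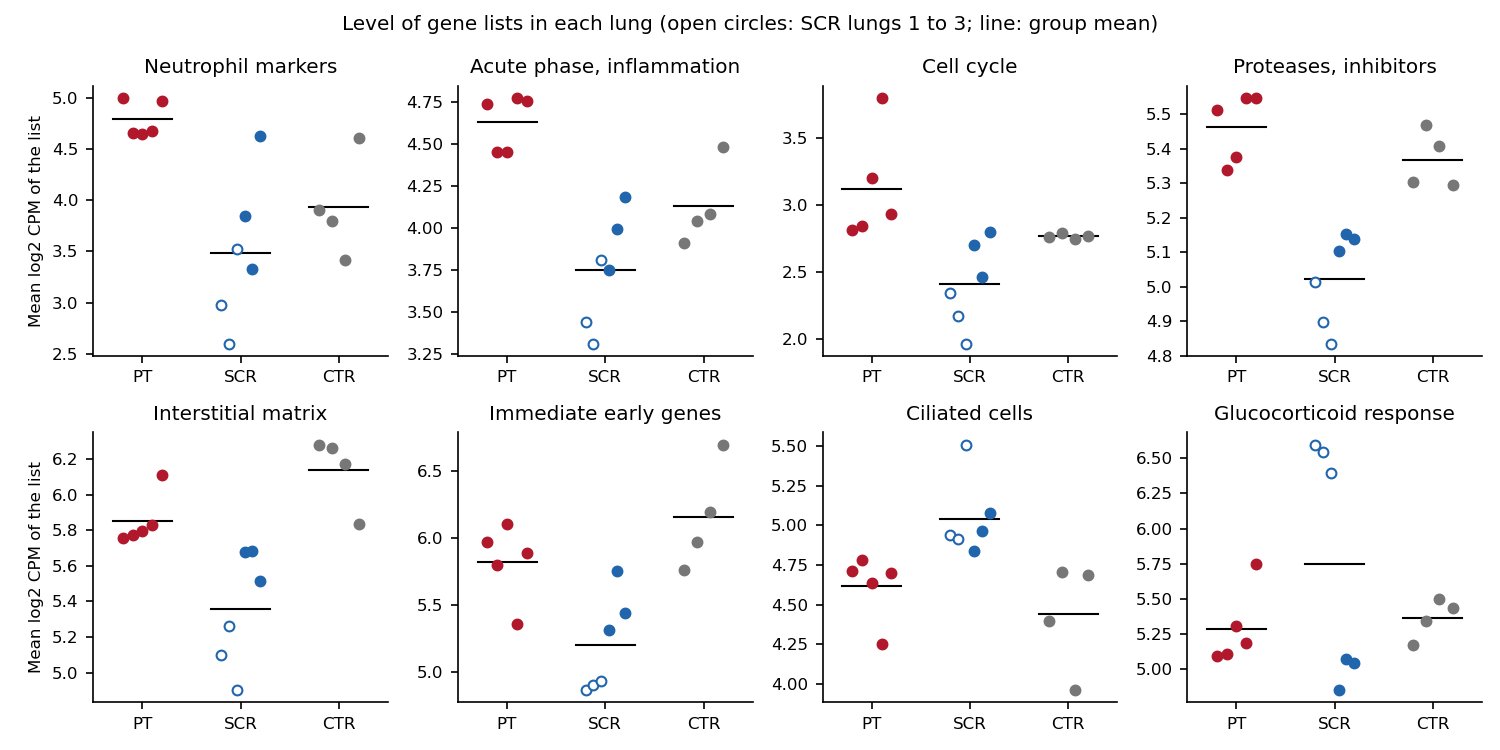
Each point is the mean log2 CPM of a gene list (y axis) in 1 lung, by group on the x axis, with SCR lungs 1 to 3 as open circles and a line at the group mean. PT lungs lie above all SCR lungs for neutrophil markers, acute phase genes, cell cycle genes, proteases and interstitial matrix and below all of them for ciliated cell genes, while glucocorticoid response genes part SCR lungs 1 to 3 (6.40 to 6.60) from all other lungs.

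On the lower side, ciliated cell genes had similar medians with and without the 3 lungs. Ciliated cells move mucus along the airways. All 15 genes tested had a log2 fold change below 0, 6 were lower at an unadjusted p under 0.05 (background 5.60%), none passed, and the median was -0.48, against 5 lower (background 4.09%) and -0.43 without SCR lungs 1 to 3. Mean log2 CPM was 4.71, 4.78, 4.64, 4.25 and 4.70 in PT lungs, against 4.91 to 5.51 for SCR lungs 1 to 3 and 4.84 to 5.08 for SCR lungs 4 to 6. No PT lung reached an SCR lung, and CTR lungs, at 3.96 to 4.70, overlapped the PT lungs. Cetn4, a centrin of the base of cilia, averaged 7.25 ± 1.03 CPM (SD, n = 5) in PT lungs and 11.9 ± 3.24 (SD, n = 6) in SCR lungs, with log2 fold changes of -0.71 (adjusted p by edgeR = 0.162) and -0.55 without those lungs. Ccdc113 had -0.77 and -0.42, Rsph1 of the radial spokes -0.67 and -0.38, and Cfap44 of the axoneme -0.55 and -0.77.

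Other genes with the smallest p among the lower ones did not pass either. Serpinb1b, a protease inhibitor of the family that restrains neutrophil enzymes, averaged 2.03 ± 0.176 CPM (SD, n = 5) in PT lungs and 3.71 ± 0.502 (SD, n = 6) in SCR lungs, with log2 fold changes of -0.86 (adjusted p by edgeR = 0.0849) and -0.87 without SCR lungs 1 to 3. Prkca, which encodes protein kinase C alpha, had 28.9, 21.9, 21.8, 21.5 and 22.6 CPM in PT lungs and 29.6 (lowest), 47.0 (median) and 65.8 CPM (highest) in SCR lungs. PT lung 1 nearly reached SCR lung 1, and the log2 fold change was -1.04 ± 0.24 (SE, adjusted p = 0.118 by edgeR), and -1.06 without SCR lungs 1 to 3. Rasgrf1, an exchange factor for Ras, had -1.37 (adjusted p by edgeR = 0.0938) and -1.05, and its PT level of 1.42 ± 0.191 CPM (SD, n = 5) stood beside 3.68 ± 1.23 (SD, n = 6) in SCR lungs and 1.44 ± 0.518 (SD, n = 4) in CTR lungs. Scel, a protein of the cornified envelope that alveolar type 1 cells also make, had -0.80 and -0.70, and Traf3ip1, a protein of ciliary transport, -0.51 and -0.43.

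Several other differences rested on SCR lungs 1 to 3. Of 18 glucocorticoid response genes, 8 were lower and 1 higher at that threshold of p, with a median of -0.56. Without SCR lungs 1 to 3, 0 were lower and 3 higher, and the median was 0.30. Mean log2 CPM was 5.10 to 5.75 in PT lungs, against 6.40 to 6.60 for SCR lungs 1 to 3 and 4.85 to 5.08 for SCR lungs 4 to 6. Tsc22d3, a classical target of the glucocorticoid receptor, averaged 168 ± 51.1 CPM (SD, n = 5) in PT lungs and 419 ± 322 (SD, n = 6) in SCR lungs, with log2 fold changes of -1.32 and 0.25. Hif3a, an inhibitor within the hypoxia pathway, had -2.38 and 0.025, and Sult1a1, a sulfotransferase, -1.29 and 0.017. Of 19 circadian clock genes, 7 were lower and 1 higher with a median of -0.60, and 0 in either direction with a median of -0.10 without those lungs. Per2, a repressor of the clock, had -1.58 and -0.28. Of 17 genes of club and secretory epithelium, 9 were lower with a median of -0.62, and 0 with a median of -0.06. Among them Fmo2, which oxidizes xenobiotics, had -0.72 and -0.24, and Gsta3, a glutathione transferase, -1.02 and 0.022. Cyp2a5, a cytochrome P450, had -1.52 and -0.73. Time of day, steroid state and the part of the lung sampled are not given in the sources used here, and their part in these values was not tested.

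None of the markers of fat, heart and mesothelium passed the adjusted test in edgeR. Of 14 adipocyte genes, 6 were higher and 0 lower by the unadjusted p, with a median of 1.21, the highest of all lists, and 2 with 0.77 without SCR lungs 1 to 3. Their mean log2 CPM was 4.09, 3.92, 4.14, 5.28 and 3.95 in PT lungs and 2.82 to 4.09 in SCR lungs, and PT lung 5 alone stood far above. The summed level overlapped, at 1907 to 2696 CPM in PT lungs and 1327 to 2973 CPM in SCR lungs. Plin1, which coats fat droplets, had log2 fold changes of 2.3 and 1.66, Fabp4, a fatty acid carrier of adipocytes and macrophages, 1.48 and 1.38, and Adipoq, the adipocyte hormone adiponectin, picked after its values were seen, 1.85 and 1.32. Of 18 cardiac muscle genes, 2 were higher (background 6.19%) with a median of 0.76. Without SCR lungs 1 to 3, 3 were higher (background 5.28%) with a median of 1.00. Without PT lung 6 and SCR lungs 5 and 6 the median was 0.26. Their summed level was 583 to 1484 CPM in PT lungs, 180 to 836 CPM in SCR lungs and 208 to 1312 CPM in CTR lungs. Nppa, the atrial hormone precursor, had 11.8, 1.32, 0.280, 1.03 and 33.9 CPM in PT lungs and 0 to 2.07 CPM in SCR lungs, with 0 counts in SCR lungs 3 and 6. Actc1, cardiac actin, had 0.87 and 1.07. Of 14 mesothelial markers, 0 were higher or lower at an unadjusted p under 0.05, and the medians were 0.32 and -0.16. The part of fat, heart or mesothelium in the results for other genes was not tested.

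Lymphocyte lists held few or no genes past an unadjusted p under 0.05. With all lungs, 16 of 16 B cell markers and 15 of 16 NK and cytotoxic markers had a log2 fold change above 0. T cell markers were split, with 7 above 0 and 11 below. Of 16 B cell markers, 0 were higher or lower at an unadjusted p under 0.05 in edgeR, and the median was 0.44 with all lungs and -0.40 without SCR lungs 1 to 3. Of 18 T cell markers, 0 were higher or lower, with medians of -0.12 and -0.59, and 1 was lower without those lungs. Their summed level was low, at 68.5 to 114 CPM in PT lungs and 40.5 to 156 CPM in SCR lungs. Of 16 NK and cytotoxic markers, 3 were higher with a median of 0.59, and 0 with a median of 0.13, and Ncr1, an activating receptor of NK cells, had 0.60 and 0.27. Of 13 erythroid genes, 1 was higher (background 6.19%), with medians of 0.21 and 0.06. That gene, Slc4a1, the anion exchanger of red cells, had 43.4 CPM in PT lung 6 against 2.69 to 6.98 CPM in the other PT lungs.

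Many lists had medians near that of all genes. The medians were 0.17 for 17 alveolar type 2 genes, -0.05 for 16 alveolar type 1 genes, 0.0058 for 24 endothelial genes, -0.01 for 18 genes of VEGF, angiopoietin and Notch signalling and -0.06 for 24 genes of the TGF-beta and BMP pathway. In each of these lists, at most 2 genes were higher and at most 2 lower at an unadjusted p under 0.05 (background 6.19% and 5.60%). The medians without SCR lungs 1 to 3 were, in the same order, 0.13, 0.03, -0.01, -0.06 and -0.03, with at most 2 genes higher and at most 3 lower. Among them Jag1, a Notch ligand, had -0.35 and -0.36 without SCR lungs 1 to 3, Hey1, a Notch target, -0.83 and -0.37, and Selp, the P-selectin of endothelium, 1.02 and 0.48. Fibroblast and mesenchyme genes had a median of 0.25 with 3 of 20 higher and 0 lower (background 6.19% and 5.60%). Without SCR lungs 1 to 3 it was 0.04 with 1 higher and 1 lower (background 5.28% and 4.09%). Cd34, which had the smallest p of this list, had 0.57 and 0.53. For 40 ribosomal protein genes, the median was -0.40 with all lungs and 0.13 without SCR lungs 1 to 3, for 36 respiratory chain subunits -0.19 and 0.26, and for 15 heat shock genes -0.12 and 0.57. The sign of these last medians therefore turned on the same 3 lungs.

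**Figure D5:**
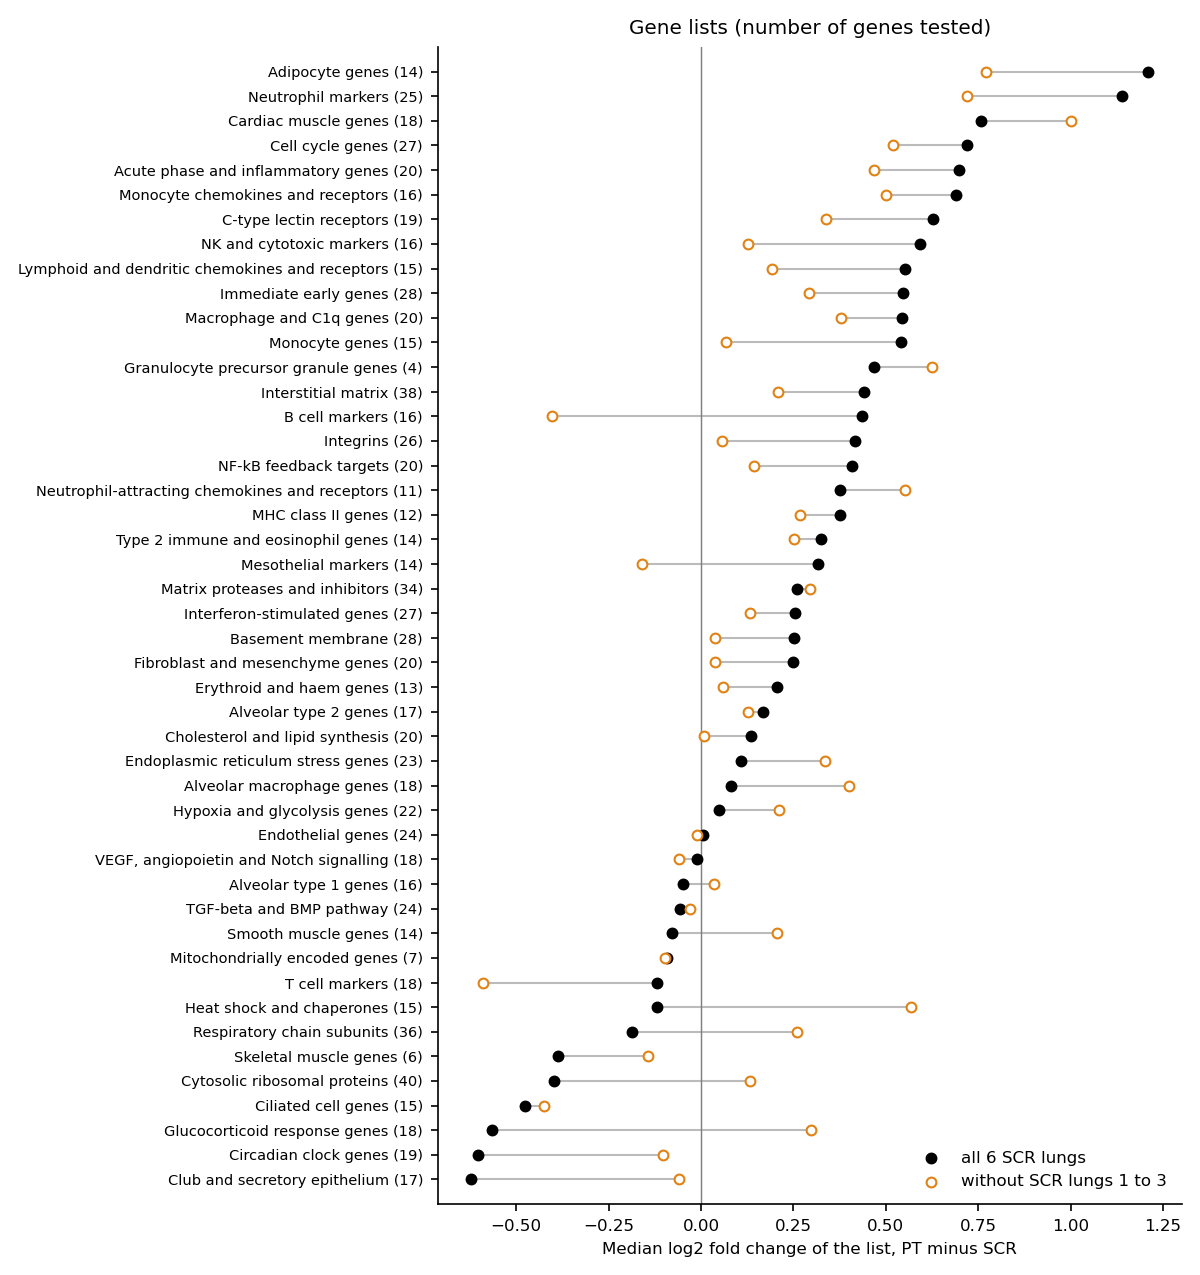
The x axis is the median log2 fold change (PT minus SCR) of each gene list, black with all 6 SCR lungs and open orange without SCR lungs 1 to 3, with the number of genes tested in brackets. Neutrophil markers (1.14 and 0.72) and ciliated cell genes (-0.48 and -0.43) stay on their side of 0, and glucocorticoid response genes (-0.56 and 0.30) and B cell markers (0.44 and -0.40) cross it.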

How the data were processed

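RNA of 15 mouse lungs was analysed, 1 single-end library per lung. The authors trimmed reads (cutadapt 1.15), removed contaminants (Bowtie2 2.3.3.1), aligned to GRCm38 (STAR 2.5.2b, SAMtools 1.5) and counted reads per Ensembl gene (featureCounts 1.5.3), and deposited raw counts for 46603 genes. The strand setting is not given in the sources used here. The FPKM deposited by the authors carried EDASeq normalization and entered only 1 alternative (limma 3.58.1, pseudocount 1).

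Counts of the 3 groups were fitted together with edgeR 4.0.16 (R 4.3.3, TMM, filterByExpr, robust quasi-likelihood test, 12 residual degrees of freedom), and PT minus SCR was tested for 15870 genes with Benjamini-Hochberg adjustment at 0.05. The step was tested on simulated data in which only genes averaging over 100 counts were changed. Their simulated spread was below the common spread of the real fit, and no lungs stood apart. That run therefore does not cover scarce genes such as Cxcl2, Stk32c and Cxcl1 or the difference of SCR lungs 1 to 3. Counting error is large below about 100 counts, as for Cxcl2 in every lung. In the SCR lungs, Stk32c had 20 to 38 counts, Cxcl1 25 to 33, Timp1 41 to 87 and Saa3 34 to 157. Alternatives were DESeq2 1.42.0, the likelihood ratio test, other scalings and filters, sex or replicate number in the model, male lungs, fewer groups, and each lung left out. Sex as a term without SCR lungs 1 to 3, the fit without PT lung 6 and SCR lungs 5 and 6, the sex interaction and the NF-kB consensus were added after the data were seen.

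Named genes were those past the adjusted test, the 4 smallest p of each of 47 lists, the 10 smallest p in each direction, and genes passing without SCR lungs 1 to 3. Some genes that this rule named are not reported here. Other genes are said to be picked after their values were seen. Members and lists were chosen with earlier results of these data known. Some genes are on more than 1 list, so the lists are not independent. Trem1, Lcn2, Cxcr2 and Clec4d, for example, are neutrophil markers and also members of another list. Coordinates are those of the deposited table, with chromosomes from GENCODE M21. Tables and figures used Python 3.11.15, pandas 2.3.3, numpy 2.4.6 and matplotlib 3.10.9.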

Additional observations from a re-analysis of the deposited data

Results flagged for a closer look

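In 9 of 78 groups of lungs examined, 1 lung lay far from the rest of its group. The rule flags about 1 in 20 independent groups of normally distributed values. These groups share lungs and some genes, so the count cannot be set against that rate. Saa3 had 11.4 CPM in SCR lung 6, against 2.64 to 4.14 in the other SCR lungs, and 9.83 CPM in CTR lung 5, against 2.61 to 3.59. Cxcl2 had 6.30 CPM in PT lung 6, against 1.84 to 2.43 in the other PT lungs, 0.943 CPM in SCR lung 6, against 0.223 to 0.485, and 0.373 CPM in CTR lung 2, against 1.21 to 1.24. In mean log2 CPM, interstitial matrix genes lay at 6.11 in PT lung 6 (5.76 to 5.83 in the other PT lungs) and adipocyte genes at 5.28 in PT lung 5 (3.92 to 4.14). Ciliated cell genes lay at 4.25 in PT lung 5 (4.64 to 4.78 in the other PT lungs) and at 5.51 in SCR lung 3 (4.83 to 5.08 in the other SCR lungs).

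For 2 of 15870 genes the difference between PT and SCR lungs itself differed between female and male lungs (edgeR interaction term, 2 female and 3 male PT lungs, 2 female and 4 male SCR lungs). The female minus male difference of log2 fold changes was -7.38 for Gm6969 (adjusted p by edgeR = 0.000852) and 7.04 for A730017L22Rik (adjusted p by edgeR = 0.0028). Gm6969 had 0.224 and 0.0735 CPM in the female PT lungs 3 and 5, against 15.1 to 31.3 CPM in the SCR lungs. A730017L22Rik had 0.0768, 0 and 0 CPM in the male PT lungs 1, 2 and 6, against 2.21 to 4.69 CPM in the SCR lungs.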

How the results depend on the processing

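The 6 genes that passed kept their direction under all 29 alternatives. Stk32c passed in 28 of them, Saa3 in 20, Timp1 in 18, Cxcl1 in 17, Cxcl2 in 13 and Pgm5 in 11, and the highest adjusted p values were 0.0612, 0.344, 0.226, 0.303, 0.367 and 0.367, all without SCR lungs 1 to 3. The number of genes called was 238 with DESeq2, 183 with the likelihood ratio test, 102 without PT lung 6 and SCR lungs 5 and 6, 19 with sex as a term, 11 without a filter on low counts, 2 with limma on the FPKM and 1 without SCR lungs 1 to 3, and between 1 and 96 with 1 lung left out. With PT and SCR lungs only it was again 6, but 3 of them (Stk32c, Saa3 and Cxcl1) were among the 6 reported. With male lungs only it was also 6, with 2 of the 6 reported (Stk32c and Saa3) and 2 lower genes (Scel and A730017L22Rik). Replicate numbers did not pair the lungs (correlations of deviations between -0.152 and 0.373), and with the replicate block 4 genes were called, all among the 6. At an unadjusted p under 0.05, higher genes numbered 705 to 1202 and lower genes 556 to 1124 with 1 lung left out. Of 853 list genes tested, 181 were higher and 50 lower in the fit reported, beside 6.19% and 5.60% of all genes. Higher members of the lists numbered 145 to 212 with 1 lung left out. Lower members numbered 33 with library size only, 16 without SCR lungs 1 to 3, and 18 when sex was added to that fit. They numbered 97 without PT lung 6 and SCR lungs 5 and 6, and 27 to 78 with 1 lung left out.

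Of 94 genes named, the sign of 5 turned, in 7 combinations of a gene and a fit, all without SCR lungs 1 to 3. With 1 lung left out none turned. Without SCR lungs 1 to 3 the log2 fold change was -0.0021 for Timp2, 0.022 for Gsta3, 0.017 for Sult1a1, 0.025 for Hif3a and 0.25 for Tsc22d3, and with sex as a term as well it was -0.14 for Timp2 and 0.31 for Tsc22d3. The cause was not tested. Depth limits Cxcl2, Cxcl11 and other transcripts of few counts.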
